A study of Mus musculus with 15 samples.

Results

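Transcripts of 10 epidermal barrier lipid genes were followed in mouse dorsal skin. The genes were taken by symbol from the 18929 genes of the deposited table: Slc27a4, Elovl4, Cyp4f39, Cers3, Pnpla1, Abca12, Alox12b, Aloxe3, Sdr9c7 and Nipal4. All 10 were found, none was at 0 in any sample, and all 10 were among the 15369 genes that passed the filter on low counts.

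The skin came from wild-type male balb/c mice 4 to 6 weeks old, in 5 groups of 3 samples each. Full-thickness excisional wounds of 10 mm or 15 mm were printed either with acellular Matrigel beads ("acellular 10 mm" and "acellular 15 mm") or with beads holding human umbilical cord mesenchymal stem cells (MSCs) at high density among acellular beads ("HDB 10 mm" and "HDB 15 mm"), at 84000 MSCs for a 10 mm wound and 180000 for a 15 mm wound. The fifth group was normal skin. Tissue for sequencing was taken after 4 weeks of implantation according to one passage of the methods, while the wound experiment itself is described as ending on day 21. It is not stated that reads from human transcripts were set apart. Poly(A) RNA was sequenced from whole skin, so in every comparison below fewer cells of a type and less RNA per cell cannot be told apart. The labels do not say that the 3 samples of a group were separate animals, so the p-values measure the spread between these samples.

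The outermost layer of the epidermis is sealed by sheets of lipid, in which ceramides carrying ultra long acyl chains are the characteristic component. Differentiating keratinocytes build the chains, hydroxylate their far end, join linoleate to it to give acylceramide, pack the product into lamellar granules, and then oxidise the linoleate so that the ceramide can be bound to the protein envelope of the dead cell. Loss of function of these genes in people gives forms of ichthyosis, and several of the early enzymes also serve the sebaceous gland, which makes its own very long chain lipids.

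Depth differed little, with 15840551 to 18404188 counts per sample. Levels are given as library-scaled counts (CPM) after TMM normalisation, a scaling by edgeR that allows for RNA composition, and the summed level of marker lists is on the same scale. Normal skin held far more skeletal muscle RNA than the wounds, with a summed level of 8 muscle genes of 48333 to 55569 CPM against 695 to 35767 CPM over the wound samples. Genes of the hair follicle's shaft and inner root sheath ran the other way, and the sum of 14 of them was 19.3 to 24.2 CPM in normal skin, where 4 of them were at 0 in every sample, and reached 20054 CPM in acellular 15 mm replicate 1. Samples of the acellular 15 mm group were the least alike, and across genes the log2 CPM of replicate 1 correlated with that of replicates 2 and 3 at r = 0.92 and 0.85, and replicates 2 and 3 with each other at 0.92. The defining keratinocyte genes Krt5, Krt14, Krt1 and Krt10 were detected in every sample, and Krt5 averaged 2518 CPM in normal skin and 4880 to 6265 CPM in the wound groups. The part of these tissue shares in the results below was not tested.

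The upstream sequences of the 5 genes that passed a test against normal skin are shown first, so that the 3 that were higher in wounds can be set beside the 2 that were lower. They come from RefSeq windows on GRCm38.p6, are written in the direction of transcription, and stop before the RefSeq start or the first start in the GENCODE annotation, whichever comes earlier. Capitals mark GGGCGG, a core that SP and KLF factors bind, or TATAAA, the TATA box, each on either strand.
Slc27a4 (chr2:29802384-29802633, + strand): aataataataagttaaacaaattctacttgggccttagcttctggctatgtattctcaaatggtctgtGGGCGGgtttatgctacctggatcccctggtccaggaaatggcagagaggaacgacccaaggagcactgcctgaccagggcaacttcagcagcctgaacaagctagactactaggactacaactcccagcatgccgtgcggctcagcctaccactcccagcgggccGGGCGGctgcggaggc
Elovl4 (chr9:83806306-83806555, - strand): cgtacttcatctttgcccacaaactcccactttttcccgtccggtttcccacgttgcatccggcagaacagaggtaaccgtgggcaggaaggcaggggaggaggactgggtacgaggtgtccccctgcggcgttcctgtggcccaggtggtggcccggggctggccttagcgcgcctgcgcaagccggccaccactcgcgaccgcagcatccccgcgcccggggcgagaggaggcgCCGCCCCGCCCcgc
Cyp4f39 (chr17:32452473-32452722, + strand): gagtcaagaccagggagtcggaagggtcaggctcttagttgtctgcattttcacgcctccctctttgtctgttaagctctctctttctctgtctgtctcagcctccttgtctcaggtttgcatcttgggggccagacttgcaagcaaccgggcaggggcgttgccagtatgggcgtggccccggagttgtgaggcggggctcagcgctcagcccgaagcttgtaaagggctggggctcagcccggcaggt
Alox12b (chr11:69156822-69156988, + strand): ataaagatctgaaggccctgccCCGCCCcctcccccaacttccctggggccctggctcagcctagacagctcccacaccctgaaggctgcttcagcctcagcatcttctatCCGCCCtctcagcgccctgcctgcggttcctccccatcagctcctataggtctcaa
Sdr9c7 (chr10:127898285-127898517, + strand): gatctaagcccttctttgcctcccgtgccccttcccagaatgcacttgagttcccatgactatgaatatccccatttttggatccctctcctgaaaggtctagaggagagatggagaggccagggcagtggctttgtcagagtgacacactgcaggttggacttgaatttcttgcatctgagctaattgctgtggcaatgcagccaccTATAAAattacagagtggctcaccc

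Windows of 250 bases before to 50 after the RefSeq start were matched for 9 of the 10 genes (not Aloxe3). GGGCGG was held by Slc27a4, Elovl4, Alox12b and Nipal4, and by 35.7% of all 32851 windows of the same length. TATAAA was held by Sdr9c7, against 13.6% of all windows. The C/EBP letters TTGCNNAA occurred in Nipal4 and Pnpla1, against 10.8% of windows. Neither the grainyhead letters ACCGGTT (1.02% of windows) nor the AP-1 letters TGANTCA (7.81%) occurred in any of the 9. GGGCGG was thus present in 2 genes that were higher and in 1 that was lower in wounds. A match describes the letters of the window, not a site of binding.

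Whether wounded skin differed from normal skin in these genes was asked in each of the 4 wound groups. In 10 mm wounds Slc27a4, Elovl4 and Cyp4f39, 3 enzymes that act on the fatty acid chain before the ceramide is formed, rose in both acellular and HDB wounds, by 1.95-fold to 2.36-fold. Sdr9c7 fell in acellular 10 mm, acellular 15 mm and HDB 15 mm wounds, and Alox12b fell in acellular 15 mm wounds. Aloxe3, whose step lies between theirs, had log2 fold changes of -0.21 to 0.69. Cers3, Pnpla1, Abca12, Aloxe3 and Nipal4 passed the test in none of the 4 comparisons. By count, 3 of 10 members were called higher and 1 lower in acellular 10 mm wounds, where 9.77% of all genes were called higher and 10.6% lower. In acellular 15 mm wounds 0 were higher and 2 were lower, with a background of 17.6% and 12.6%. In HDB 10 mm wounds 3 were higher and 0 lower, with a background of 6.1% and 6.23%. In HDB 15 mm wounds 0 were higher and 1 was lower, with a background of 2.67% and 2.51%. The median log2 fold change of the 10 genes against normal skin was 0.53, 0.12, 0.37 and 0.18 in the order acellular 10 mm, acellular 15 mm, HDB 10 mm and HDB 15 mm, and that of all genes tested lay between 0.02 and 0.06. The 4 comparisons share the same normal samples and are given side by side only.

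**Figure D1:**
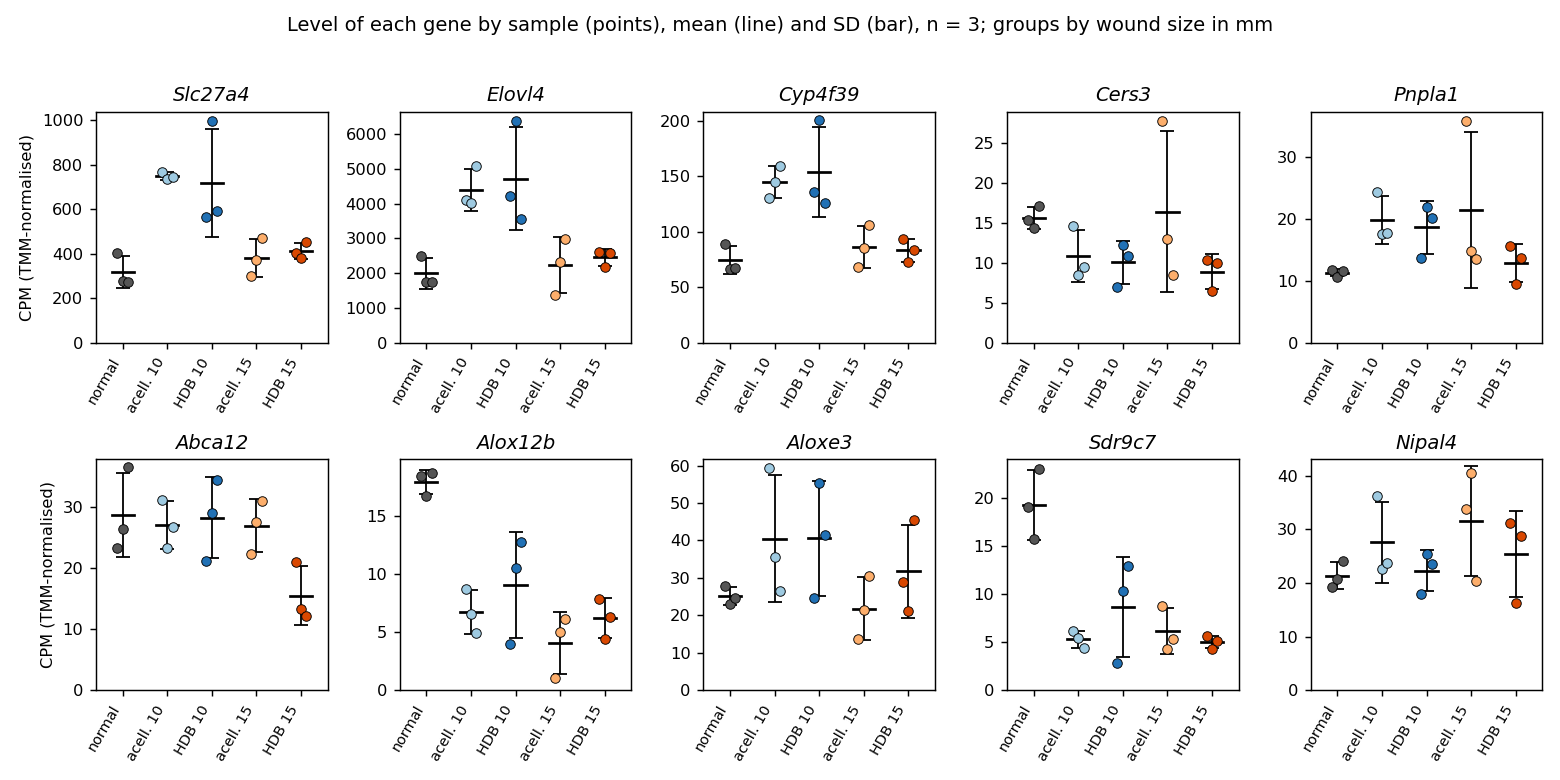
TMM-normalised CPM (vertical axis, linear from 0) of each of the 10 genes in every sample (points), with the group mean (line) and SD (bar), n = 3 per group. Slc27a4, Elovl4 and Cyp4f39 are highest in the 10 mm groups, while Alox12b and Sdr9c7 are highest in normal skin.

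Positions below are those of the annotation on GRCm38.p6, the build that the submitters' processing notes name. Slc27a4 (gene ID 26569, chr2:29802634-29817522) encodes a fatty acid transport protein that activates long chain fatty acids to their CoA esters. Its level was 402, 279 and 274 CPM in the normal samples, 767, 735 and 743 CPM in acellular 10 mm wounds, and 565, 997 and 593 CPM in HDB 10 mm wounds. In 15 mm wounds it was 300.5, 372 and 469 CPM with acellular beads and 403, 383 and 453 CPM with HDB. All 6 samples from 10 mm wounds lay above all 3 normal samples and above all 6 samples from 15 mm wounds, and the 15 mm and normal samples overlapped. The gene was 2.35-fold higher in acellular 10 mm wounds than in normal skin (log2 fold change 1.23, SE 0.24, adjusted p = 0.00881, edgeR quasi-likelihood test with Benjamini-Hochberg adjustment). In HDB 10 mm wounds it was 2.26-fold higher (1.17, SE 0.24, adjusted p = 0.016). The first call held without any single sample of its groups, and the second was lost without HDB 10 mm replicate 2 or without normal replicate 2 or 3, with log2 fold changes from 0.87 to 1.39 over the 6 fits that left out 1 sample. At 15 mm the log2 fold changes were 0.26 (95% interval -0.26 to 0.77) and 0.38 (-0.14 to 0.89) for acellular beads and HDB, and neither passed.

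Elovl4 (gene ID 83603, chr9:83778692-83806277, minus strand), the elongase that makes acyl chains of the ultra long range, was the most abundant member per kilobase of its longest coding transcript, at 666 CPM per kb in normal skin, where the other 9 lay between 2.54 and 78.6. It stood at 2507, 1738 and 1747 CPM in normal skin, 4091, 4014 and 5086 CPM in acellular 10 mm wounds and 4225, 6373 and 3553 CPM in HDB 10 mm wounds. The 15 mm wounds gave 1389.7, 2325 and 2979 CPM with acellular beads and 2626, 2184 and 2577 CPM with HDB. Again the 10 mm samples formed the upper group with no overlap, and acellular 15 mm replicate 1 was the lowest of all 15. Elovl4 was 2.2-fold higher in acellular 10 mm wounds (log2 fold change 1.14, SE 0.31, adjusted p = 0.0254). In HDB 10 mm wounds it was 2.36-fold higher (1.24, SE 0.31, adjusted p = 0.0278). With 1 sample left out, the first call held in 2 of 6 fits, being lost without acellular 10 mm replicate 1 or 3 or normal replicate 2 or 3, and the second held only without HDB 10 mm replicate 1. The second was lost as well when only the HDB 10 mm and normal samples were fitted (log2 fold change 1.23, adjusted p = 0.0566). The fold changes themselves kept to 1.02 to 1.33 and 0.97 to 1.45 on the log2 scale.

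Cyp4f39 (gene ID 320997, chr17:32452723-32493320), whose human counterpart adds the hydroxyl group to the far end of the ultra long chain, was also higher in 10 mm wounds. Normal skin held 89.1, 67.0 and 67.3 CPM, acellular 10 mm wounds 131, 145 and 159 CPM and HDB 10 mm wounds 136, 201 and 126 CPM. Levels in 15 mm wounds were 68.4, 85.2 and 106 CPM with acellular beads and 94.1, 73.1 and 83.6 CPM with HDB. As with Slc27a4 and Elovl4, every 10 mm sample exceeded every normal and every 15 mm sample. Against normal skin the gene was 1.95-fold higher in acellular 10 mm wounds (log2 fold change 0.96, SE 0.21, adjusted p = 0.0118). The HDB 10 mm difference was 2.07-fold (1.05, SE 0.21, adjusted p = 0.0143). Leaving out normal replicate 2 or 3 ended both calls, and leaving out HDB 10 mm replicate 2 ended the second. In these fits the log2 fold changes stayed between 0.82 and 1.21.

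Cers3 (gene ID 545975, chr7:66743504-66823691), the ceramide synthase that takes ultra long acyl chains, showed no call against normal skin in the fit of all groups. It was at 15.4, 14.4 and 17.0 CPM in normal skin, 14.6, 8.48 and 9.53 CPM in acellular 10 mm wounds and 7.04, 12.3 and 10.9 CPM in HDB 10 mm wounds. In 15 mm wounds the values were 27.7, 13.0 and 8.44 CPM with acellular beads and 10.3, 6.43 and 9.94 CPM with HDB. Both HDB groups lay below all normal samples, and acellular 15 mm replicate 1 was the highest of all. The log2 fold changes were -0.52, -0.63, 0.07 and -0.81 in acellular 10 mm, HDB 10 mm, acellular 15 mm and HDB 15 mm wounds, with adjusted p from 0.199 to 0.904. Fitted with only the groups compared, Cers3 was called in HDB 15 mm wounds (-0.80, adjusted p = 0.0381). Without acellular 15 mm replicate 1 the third of these turned to -0.54.

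Pnpla1 (gene ID 433091, chr17:28858411-28890309) encodes the transacylase that joins linoleate to the omega-hydroxyceramide. Its normal samples lay close together at 11.7, 10.7 and 11.7 CPM, against 24.4, 17.6 and 17.7 CPM in acellular 10 mm wounds and 13.8, 22.0 and 20.2 CPM in HDB 10 mm wounds. The acellular 15 mm wounds had 35.9, 14.9 and 13.6 CPM and the HDB 15 mm wounds 15.7, 9.52 and 13.7 CPM. All samples of the first 3 wound groups were above all normal samples, yet none of the differences passed in the fit of all groups. The log2 fold changes were 0.81, 0.72, 0.92 and 0.19 in the order used for Cers3, with adjusted p of 0.103, 0.169, 0.0582 and 0.763. When only the groups compared were fitted, Pnpla1 was called in acellular 10 mm (adjusted p = 0.0109) and HDB 10 mm wounds (adjusted p = 0.0494). DESeq2 called the gene in acellular 15 mm wounds (adjusted p = 0.0354), as did edgeR without acellular 15 mm replicate 2 or 3. Without acellular 15 mm replicate 1, the sample in which the gene was highest, the log2 fold change there was 0.33 and did not pass.

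Abca12 (gene ID 74591, chr1:71242276-71414910, minus strand), the transporter that loads lipid into lamellar granules, was near its normal level except in HDB 15 mm wounds. It gave 23.3, 26.4 and 36.5 CPM in normal skin, 31.1, 23.2 and 26.7 CPM in acellular 10 mm wounds and 21.2, 29.1 and 34.4 CPM in HDB 10 mm wounds. The acellular 15 mm wounds gave 22.3, 27.5 and 31.0 CPM and the HDB 15 mm wounds 20.97, 13.3 and 12.1 CPM. The last group lay below every normal and every acellular 15 mm sample. Its log2 fold change against normal skin was -0.89 (95% interval -1.44 to -0.35, adjusted p = 0.0573), which missed the threshold, and DESeq2 called it (adjusted p = 0.0112). No other setting did, with adjusted p up to 0.228 in edgeR. Abca12 has the longest transcript of the members. Per doubling of transcript length, log2 CPM changed by -0.16 to -0.06 in HDB 15 mm samples and by 0.01 to 0.03 in normal samples. The other 3 groups differed from normal skin by -0.02 to -0.09, with 95% intervals inside -0.63 to 0.52.

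Alox12b (gene ID 11686, chr11:69156989-69169792) encodes the 12R-lipoxygenase that oxidises the linoleate of acylceramide. Every wound sample was below every normal sample. Normal skin held 18.4, 16.7 and 18.6 CPM, acellular 10 mm wounds 8.68, 6.57 and 4.91 CPM and HDB 10 mm wounds 3.97, 10.5 and 12.7 CPM. The acellular 15 mm wounds held 1.08, 5.02 and 6.11 CPM and the HDB 15 mm wounds 7.88, 4.43 and 6.32 CPM. The lowest value belonged to acellular 15 mm replicate 1, the library with the high hair signal. Alox12b was 4.4-fold lower in acellular 15 mm wounds (log2 fold change -2.14, SE 0.54, adjusted p = 0.0139), and the call held without any single sample of the groups compared, including that library, although it was lost when only those 6 samples were fitted (adjusted p = 0.0717). The log2 fold changes in acellular 10 mm, HDB 10 mm and HDB 15 mm wounds were -1.41, -0.98 and -1.53, with adjusted p of 0.0716, 0.213 and 0.0971. DESeq2 called the first and the last of these (adjusted p = 0.0274 and 0.0298), and so did edgeR when only the groups compared were fitted (adjusted p = 0.00447 and 0.0113).

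Aloxe3 (gene ID 23801, chr11:69125896-69149115), which turns the lipoxygenase product into its epoxyalcohol, lies on the same strand 7873 bases before Alox12b, and its differences from normal skin had the opposite sign to those of Alox12b in 3 of the 4 wound groups. It had 27.9, 23.1 and 24.6 CPM in normal skin, 59.4, 35.6 and 26.5 CPM in acellular 10 mm wounds and 24.7, 55.4 and 41.5 CPM in HDB 10 mm wounds. In 15 mm wounds it had 13.5, 21.3 and 30.5 CPM with acellular beads and 28.8, 21.1 and 45.5 CPM with HDB. Every wound group overlapped normal skin. The log2 fold changes were 0.68, 0.69, -0.21 and 0.34 in the order acellular 10 mm, HDB 10 mm, acellular 15 mm and HDB 15 mm, with adjusted p from 0.21 to 0.705. Over the 12 wound samples alone the log2 CPM of Aloxe3 and Alox12b correlated at r = 0.85, against 0.48 over all 15. These points share their libraries, and how the counting treated strand is not given in the sources used here.

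Sdr9c7 (gene ID 70061, chr10:127898518-127911761), the dehydrogenase that acts after the lipoxygenases, was the most widely lowered member. Its level was 19.0, 15.7 and 23.0 CPM in normal skin, 6.11, 5.39 and 4.38 CPM in acellular 10 mm wounds and 2.84, 10.3 and 12.9 CPM in HDB 10 mm wounds. It was 8.79, 4.26 and 5.36 CPM in acellular 15 mm wounds and 5.60, 4.30 and 5.14 CPM in HDB 15 mm wounds. No wound sample reached the lowest normal sample. The gene was 3.63-fold lower in acellular 10 mm wounds (log2 fold change -1.86, SE 0.44, adjusted p = 0.0159). It was 3.14-fold lower in acellular 15 mm wounds (-1.65, SE 0.44, adjusted p = 0.0164). In HDB 15 mm wounds it was 3.84-fold lower (-1.94, SE 0.44, adjusted p = 0.0338), and in HDB 10 mm wounds the difference of -1.15 missed the threshold (adjusted p = 0.093), while DESeq2 called it (adjusted p = 0.0445). Without normal replicate 3 both acellular calls were lost, and the first was lost also without acellular 10 mm replicate 1 or 3. The HDB 15 mm call was lost without any 1 of the 6 samples of its groups, although the log2 fold change stayed between -2.06 and -1.78.

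Nipal4 (gene ID 214112, chr11:46148155-46166508, minus strand) encodes ichthyin, a membrane protein required for acylceramide formation whose exact activity is less settled. It showed 19.2, 20.8 and 24.1 CPM in normal skin, 36.3, 22.6 and 23.8 CPM in acellular 10 mm wounds and 18.0, 25.4 and 23.6 CPM in HDB 10 mm wounds. The 15 mm wounds showed 33.8, 40.5 and 20.4 CPM with acellular beads and 31.1, 16.2 and 28.9 CPM with HDB. All groups overlapped. The log2 fold changes were 0.37, 0.06, 0.56 and 0.25 in the order used for Aloxe3, with adjusted p from 0.157 to 0.907. The gene was called in acellular 15 mm wounds only without acellular 15 mm replicate 3, the lowest of that group (0.80, adjusted p = 0.0426).

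**Figure D2:**
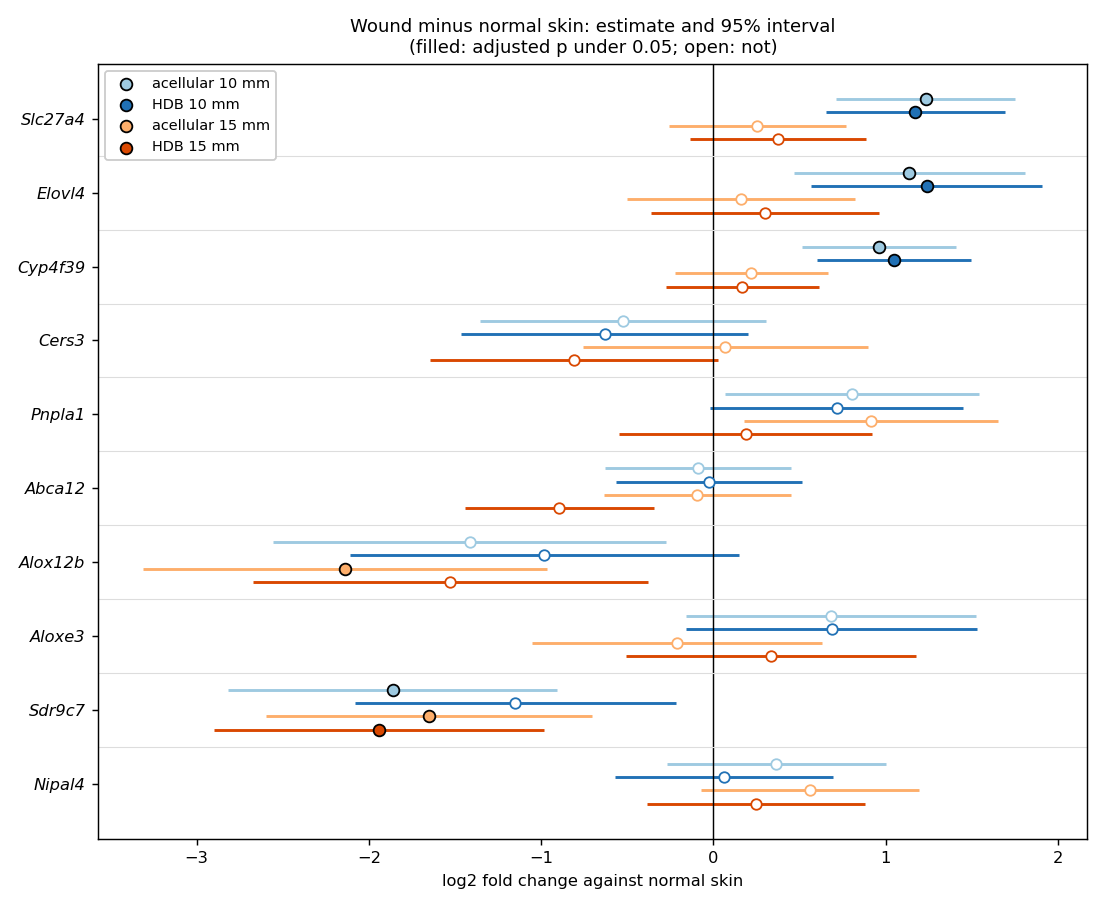
Log2 fold change of each gene against normal skin (horizontal axis) in the 4 wound groups, with 95% intervals from the edgeR fit; filled points have an adjusted p under 0.05. Filled points sit to the right for Slc27a4, Elovl4 and Cyp4f39 in 10 mm wounds and to the left for Alox12b and Sdr9c7.

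Whether the printed MSCs changed these genes was asked by setting HDB against acellular wounds of the same size. At 10 mm, 0 of 10 members were called, and 0% of all genes were (543 of 15369 genes at an unadjusted p under 0.05, 15 called by DESeq2). The largest difference among the members was that of Sdr9c7, at 0.71 on the log2 scale (95% interval -0.23 to 1.65, unadjusted p = 0.124). Slc27a4, Elovl4 and Cyp4f39 differed by -0.06 (-0.57 to 0.45), 0.10 (-0.56 to 0.76) and 0.09 (-0.35 to 0.53).

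At 15 mm, 0 of 10 members were called, where 2.93% of all genes were. With a block for replicate number, fitted over all 15 samples, 179 genes and 0 members were called. Abca12 came nearest, at -0.80 (95% interval -1.35 to -0.25, unadjusted p = 0.0076, adjusted p = 0.0943), which is 15.4 ± 4.82 CPM in HDB wounds against 26.9 ± 4.34 CPM in acellular wounds (mean ± SD, n = 3). DESeq2 called it (adjusted p = 0.0303), and over the other settings, in which it was not called, its adjusted p ran from 0.0827 to 0.464. Its transcript is the longest of the members at 9137 bases, and the samples differed in how their counts varied with transcript length: log2 CPM rose by 0.06 to 0.15 per doubling of length in the acellular 15 mm samples and changed by -0.16 to -0.06 in the HDB 15 mm samples. With each sample's length trend removed, the difference of Abca12 was -0.51 (adjusted p = 0.37). Cers3 differed by -0.88 (-1.72 to -0.04, adjusted p = 0.196) and Pnpla1 by -0.73 (-1.46 to 0.00, adjusted p = 0.217), and both rest in large part on acellular 15 mm replicate 1, the sample in which each was highest. Without that library the differences were -0.27 and -0.14. Without acellular 15 mm replicate 3, Cers3 was called (-1.19, adjusted p = 0.0426). Alox12b and Aloxe3 differed by 0.61 (-0.54 to 1.76) and 0.55 (-0.30 to 1.39), and Sdr9c7 by -0.29 (-1.23 to 0.65). The remaining members lay between -0.31 and 0.14.

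Over both sizes together 0 of 10 members were called, and 0% of all genes (2428 genes at an unadjusted p under 0.05, 210 called by DESeq2). The smallest unadjusted p was that of Abca12 (0.0585, log2 fold change -0.37). The difference between sizes in the effect of HDB, tested as an interaction, also gave 0 of 10 members and 0% of all genes (2063 at an unadjusted p under 0.05, 608 by DESeq2). Abca12 again came first, at -0.87 (-1.63 to -0.10, unadjusted p = 0.0303, adjusted p = 0.312).

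**Figure D3:**
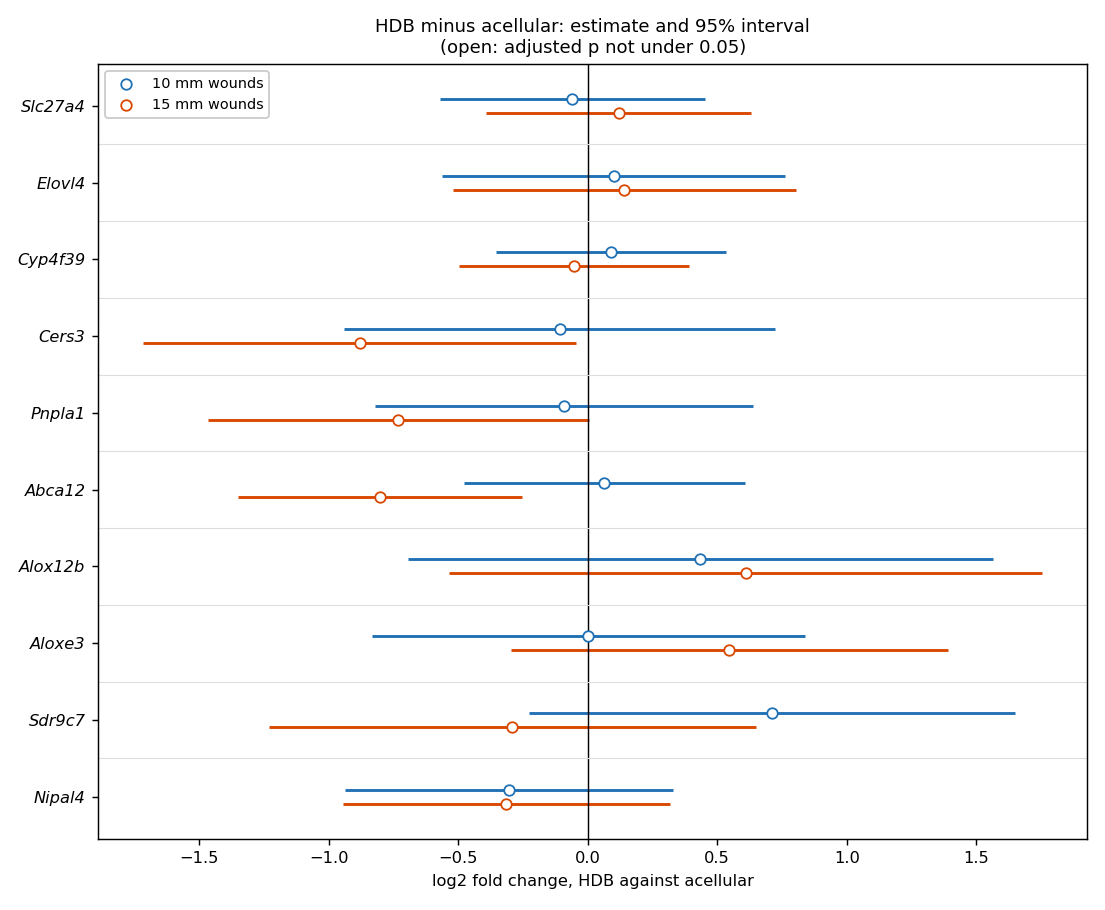
Log2 fold change of each gene between HDB and acellular wounds (horizontal axis) at 10 mm and at 15 mm, with 95% intervals from the edgeR fit. No point is filled, and at 15 mm the intervals of Abca12 and Cers3 lie to the left of 0.

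The separation by wound size seen in Slc27a4, Elovl4 and Cyp4f39 led to a comparison added after the data were seen, of all 10 mm wounds with all 15 mm wounds over both treatments. In it 2 of 10 members were called higher and 0 lower, where 0.293% of all genes were called higher and 0.104% lower. Slc27a4 was 1.85-fold higher in 10 mm wounds (log2 fold change 0.89, SE 0.17, adjusted p = 0.0487) and Cyp4f39 1.76-fold higher (0.81, SE 0.15, adjusted p = 0.0487). Elovl4 differed by 0.96 (SE 0.22, adjusted p = 0.0676), and was called by DESeq2 (adjusted p = 0.000603) and by edgeR without acellular 15 mm replicate 1 (adjusted p = 0.0472) or 3 (adjusted p = 0.019). Since the genes had been seen to separate before the test was made, the adjusted p-values do not allow for that choice. Both calls held without HDB 10 mm replicate 1 or acellular 15 mm replicate 1 or 3 and were lost without any of the other 9 wound samples, with adjusted p up to 0.135 and log2 fold changes of 0.69 to 0.98. In edgeR both were also lost in the replicate block (adjusted p = 0.108) and with only the wound groups fitted (0.117). With no filter, a mean count of at least 50 or the length trend removed they were lost at adjusted p of 0.0522 to 0.0574. DESeq2 called both. Alox12b, Aloxe3 and Abca12 differed by 0.63, 0.62 and 0.44 (adjusted p = 0.483, 0.306 and 0.262), and the remaining 4 members lay between -0.21 and 0.29.

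These 3 enzymes were also close to each other sample by sample. Over the 15 samples their log2 CPM correlated pairwise at r = 0.96 to 0.98, and over the 12 wound samples at 0.96 to 0.97. Each correlated at r = 0.97 to 0.99 with the mean of 13 sebaceous gland genes, among them Scd1, Elovl3 and Krt79, and at 0.72 to 0.77 with the mean of 8 basal keratinocyte genes. With the mean of 21 epidermal differentiation genes their r was -0.03 to 0.05 over all samples and 0.24 to 0.42 over the wound samples. The points share libraries and depth, and the values are descriptions. The sebaceous list itself had 7 of 13 genes called higher in acellular 10 mm wounds and 6 of 13 in HDB 10 mm wounds, with medians of 1.04 and 1.02, and 1 and 0 called at 15 mm, with medians of 0.12 and 0.34. Over all genes the shares called higher were 9.77% and 6.1% at 10 mm and 17.6% and 2.67% at 15 mm. With 1 sample left out the counts of the list ranged over 2 to 7 in acellular 10 mm wounds, falling to 3 or 4 without acellular 10 mm replicate 1 or 3 and to 2 without normal replicate 2 or 3. In HDB 10 mm wounds they ranged over 0 to 7, falling to 2 or 3 without HDB 10 mm replicate 2 or 3, to 3 without normal replicate 2 and to 0 without normal replicate 3. Krt79, a keratin of the sebaceous duct, was higher by 1.75 and 1.55 on the log2 scale in acellular and HDB 10 mm wounds (adjusted p = 0.00528 and 0.0109), and Elovl3, an elongase of the gland, by 1.66 and 1.86 (adjusted p = 0.00675 and 0.00889). Expressed relative to the sebaceous mean, the level of Cyp4f39 averaged -0.95 in normal skin, -0.94 in acellular 10 mm wounds and -0.84 in HDB 10 mm wounds on the log2 scale. The same difference for Slc27a4 averaged 1.14 in normal skin and 1.43 and 1.36 in the 10 mm groups, and for Elovl4 3.79, 3.97 and 4.08. On this relative scale the 10 mm samples of Cyp4f39 overlapped the normal ones, while those of Slc27a4 and Elovl4 lay above them without overlap. The part of the sebaceous gland in these differences was not tested.

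The mean of the 10 members, each scaled to unit variance, was followed most closely over the 15 samples by Lipm, an epidermal lipase (r = 0.91), Zfp667 (0.89), Mal2 (0.87), AA986860 (0.86) and Desi1 (0.86), and the next 5 genes lay between 0.81 and 0.83. The nearest genes of single members are given as well, a choice made after the values were seen. Those that followed each of these 3 enzymes most closely over the 15 samples were Rdh12 and Cers4 for Slc27a4 (r = 0.99 for both), Acsl5 and Fa2h for Elovl4 (0.99 for both) and Gk for Cyp4f39 (0.99).

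Alox12b was nearest to Lipn (r = 0.98), Krtdap (0.97), Flg2 (0.97) and Krt10 (0.96), which are genes of the upper epidermis, and then to P2ry4 (0.95). The nearest genes to Sdr9c7 were Gm94 (0.93), Mboat2 (0.92) and Nccrp1 (0.92). Sdr9c7 correlated at r = 0.79 with the mean of the epidermal differentiation list and Alox12b at 0.60, and over the 12 wound samples alone at 0.82 and 0.46. With the mean of the sebaceous list Alox12b correlated at 0.03 over all samples and at 0.66 over the wound samples, and Sdr9c7 at -0.40 and 0.10. Aloxe3 correlated with the sebaceous mean at 0.70 and 0.73. Relative to the epidermal differentiation mean Alox12b averaged -2.50 in normal skin and -4.33 to -3.26 in the wound groups on the log2 scale, and Sdr9c7 -2.41 in normal skin and -3.89 to -3.42 in the wound groups. In both genes every normal sample was above every wound sample on this relative scale, as on the absolute one. The differentiation list itself was called lower in 0, 6, 0 and 1 of 21 genes in acellular 10 mm, acellular 15 mm, HDB 10 mm and HDB 15 mm wounds and higher in 1, 1, 2 and 0, with medians of -0.34, -0.48, -0.29 and -0.64. Over all genes 10.6%, 12.6%, 6.23% and 2.51% were called lower and 9.77%, 17.6%, 6.1% and 2.67% higher. With 1 sample left out the number of list genes called ranged over 0 to 1, 2 to 10, 0 to 3 and 0 to 0 in the same order. In acellular 15 mm wounds Flg2 and Lor, proteins of the cornified layer, fell by 2.14 and 2.05 on the log2 scale (adjusted p = 0.011 and 0.0475). Pnpla1 was nearest to Dennd2c (r = 0.98) and Mpp7 (0.96), and it followed the mean of 19 transcription factors and receptors that regulate the barrier (0.91). Cers3 was nearest to Elmod1 (0.93) and Tgm1 (0.92), the transglutaminase that crosslinks the envelope. Over the wound samples alone Cers3 and Pnpla1 correlated with each other at r = 0.88, against 0.49 over all 15 samples. Both were highest in acellular 15 mm replicate 1.

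**Figure D4:**
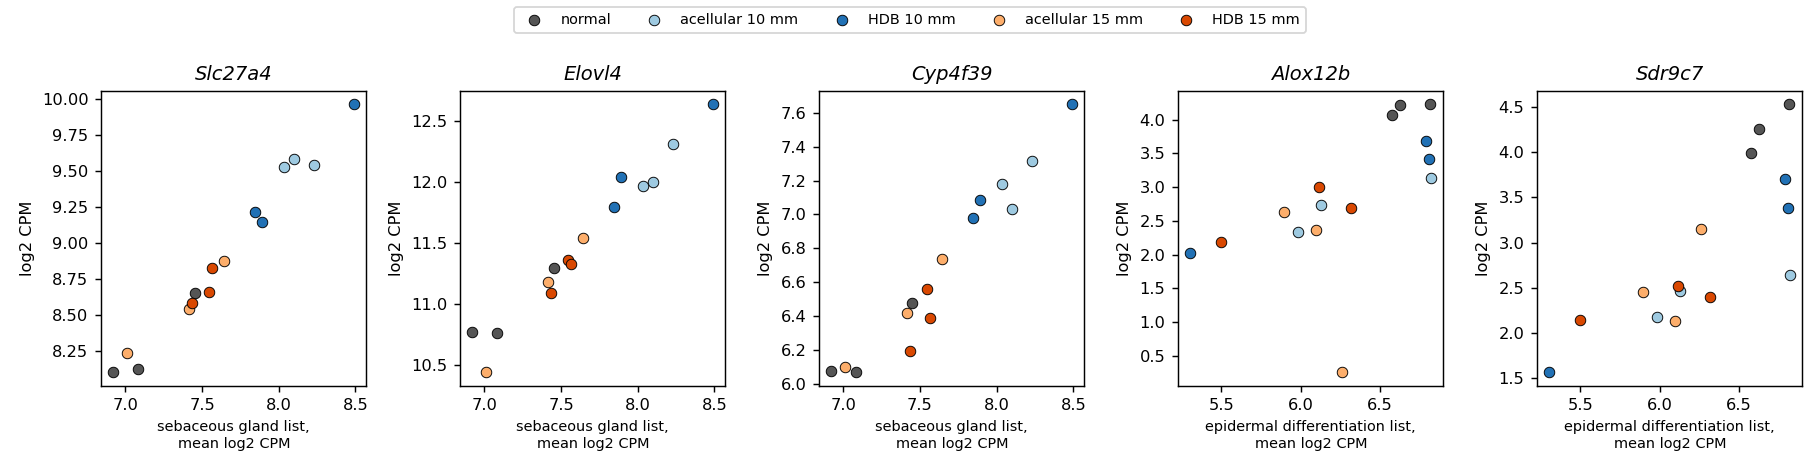
Log2 CPM of 5 genes (vertical axes) in each of the 15 samples against the mean log2 CPM of the sebaceous gland list (first 3 panels) or the epidermal differentiation list (last 2 panels), coloured by group. Slc27a4, Elovl4 and Cyp4f39 lie along a line (r = 0.97 to 0.99), while for Alox12b and Sdr9c7 the normal samples lie above the wound samples.

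The other genes of the pathway, 28 in a list from sphingoid base synthesis to lipid hydrolysis, changed in both directions. Against normal skin 9 of 28 were called higher and 3 lower in acellular 10 mm wounds, 3 and 5 in acellular 15 mm wounds, 6 and 1 in HDB 10 mm wounds and 1 and 1 in HDB 15 mm wounds, with medians of 0.28, -0.01, 0.26 and 0.09. The shares of all genes called were 9.77%, 17.6%, 6.1% and 2.67% higher and 10.6%, 12.6%, 6.23% and 2.51% lower. With 1 sample left out the number of the 28 called ranged over 2 to 10, 3 to 8, 0 to 13 and 0 to 3. Elovl6, which elongates palmitate, rose by 1.46 and 1.76 on the log2 scale in acellular and HDB 10 mm wounds (adjusted p = 0.00827 and 0.00881). Cers4, a ceramide synthase of the sebaceous gland and hair follicle, rose by 1.31 and 1.43 (adjusted p = 0.0125 and 0.0154), and Fa2h, the fatty acid 2-hydroxylase, by 1.22 and 1.29 (adjusted p = 0.0137 and 0.018). Acsl1, an acyl-CoA synthetase abundant in fat and muscle, fell by 1.33 in acellular 10 mm wounds (adjusted p = 0.0162) and by 0.98 in acellular 15 mm wounds (adjusted p = 0.0344). The epidermal lipases Lipn and Lipk fell by 1.91 and 1.27 in acellular 15 mm wounds (adjusted p = 0.0128 and 0.0318). None of the 28, and no gene of the other lists, was called between HDB and acellular wounds in either size, over both sizes or in the interaction. Some lists still shifted as a whole. Hair genes had 0 of 14 above 0 at both sizes, with medians of -4.12 at 10 mm and -4.16 at 15 mm. Fibroblast genes had 8 of 8 above 0 (medians 1.14 and 0.85) and endothelial genes 7 of 7 (0.60 and 0.44). The part of these shifts in the members' differences was not tested. The fit without acellular 15 mm replicate 3 called 6 of 8 fibroblast, 9 of 14 hair, 6 of 19 regulator and 3 of 21 epidermal differentiation genes at 15 mm, and 5 fibroblast and 8 hair genes over both sizes. In the comparison of 10 mm with 15 mm wounds, which was added after the data were seen, Fa2h was the 1 list gene called, 1.04 higher in 10 mm wounds (adjusted p = 0.0487). No gene of the 28 was called there with no filter, a mean count of at least 50, only the wound groups fitted or the length trend removed, while DESeq2 called 9. Leaving out single samples gave 0 to 9, with 7 and 9 called without acellular 15 mm replicates 1 and 3, 3 without HDB 10 mm replicate 1 and 0 without any of the others.

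Known regulators of the barrier programme were called higher in 4, 7, 2 and 2 of 19 genes and lower in 1 of 19 in each of acellular 10 mm, acellular 15 mm, HDB 10 mm and HDB 15 mm wounds. The shares of all genes called higher were 9.77%, 17.6%, 6.1% and 2.67%, and lower 10.6%, 12.6%, 6.23% and 2.51%. The medians of the list were 0.35, 0.27, 0.22 and -0.03 in that order of groups. Vdr, the vitamin D receptor, was 1.75, 2.29, 1.47 and 1.59 higher on the log2 scale in that order, and Tfap2a 1.55, 1.83, 1.58 and 1.32, each called in all 4 groups. Klf4, which directs terminal differentiation, was called in HDB 10 mm wounds at -0.51 (adjusted p = 0.0474). Leaving out single samples, the number of regulators called ranged over 2 to 5, 4 to 11, 0 to 3 and 0 to 3 in the same order.

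Marker lists of the cells these genes could come from are given as counts beside the members. Over all genes 9.77%, 17.6%, 6.1% and 2.67% were called higher and 10.6%, 12.6%, 6.23% and 2.51% lower, in the order of groups used for the regulators. Basal keratinocyte genes were called higher in 3, 1, 1 and 0 of 8 in the same order of groups, and the wound keratinocyte genes in 2, 3, 2 and 2 of 8, with Krt16 between 3.70 and 6.03 higher on the log2 scale. The hair list had 6, 14, 0 and 1 of 14 genes called higher. Endothelial genes were called lower in 7, 7, 5 and 0 of 7, adipocyte genes in 7, 0, 0 and 0 of 7, fibroblast genes in 4, 1, 0 and 0 of 8, skeletal muscle genes in 0, 1, 0 and 0 of 8 and leukocyte genes in 1, 0, 0 and 0 of 5. Over the fits that left out 1 sample, between 0 and 7 hair genes were called in acellular 10 mm wounds, and at 15 mm between 8 and 14, while the endothelial genes ranged over 5 to 7, 2 to 7, 0 to 5 and 0 to 3 in the order of groups, the adipocyte genes over 2 to 7 in acellular 10 mm wounds and the fibroblast genes over 1 to 4 and 0 to 5 in acellular 10 mm and 15 mm wounds. In the same fits the wound keratinocyte genes ranged over 0 to 2, 2 to 4, 0 to 7 and 0 to 3 in the order of groups, with 7 called in HDB 10 mm wounds without HDB 10 mm replicate 1, and the basal keratinocyte genes over 1 to 3, 0 to 3, 0 to 1 and 0 to 1. Skeletal muscle genes ranged over 0 to 6 in acellular 15 mm wounds, with 6 called without acellular 15 mm replicate 2, and leukocyte genes over 0 to 1 and 0 to 2 in acellular 10 mm and 15 mm wounds. Relative to the mean of the basal keratinocyte list, the mean of the 10 members was -3.73 ± 0.19 in normal skin (log2 difference, mean ± SD, n = 3), and the means of the 4 wound groups lay between -4.44 and -4.07. The normal samples (-3.91 to -3.54) were overlapped by HDB 10 mm (-4.58 to -3.73) and acellular 15 mm samples (-4.70 to -3.78), but not by the other wound groups. Relative to the epidermal differentiation list the mean of the members was -1.15 ± 0.11 in normal skin, with wound group means between -0.83 and -0.62. Here the normal samples (-1.24 to -1.02) were overlapped by acellular 15 mm (-1.11 to -0.56) and HDB 15 mm samples (-1.04 to -0.67), but not by the 10 mm groups. The part of these cell types in the members' differences was not tested.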

How the data were processed

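Dorsal skin, 15 samples in 5 groups of 3, was profiled by poly(A) RNA sequencing, and groups were taken from the sample titles. The authors deposited 1 table of estimated counts per gene, not scaled by depth or length. The submitters' processing notes name HISAT2 2.0.4, Bowtie2 2.2.5, RSEM 1.2.12 and GRCm38.p6 without giving their roles, and the strand setting is not given in the sources used here. Totals were 15840551 to 18404188 per sample, and decimal values (2074 to 2237 genes per sample) were rounded.

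Counts were tested with the edgeR quasi-likelihood test (edgeR 4.0.16, limma 3.58.1, R 4.3.3) on all 5 groups, with TMM factors (0.899 to 1.13), the filterByExpr filter, which kept 15369 of 18929 genes, and Benjamini-Hochberg adjustment over all genes tested. A gene was called at an adjusted p under 0.05. Intervals are 95% intervals of the fit. Log2 CPM for correlations used a prior count of 2. The study's methods used DESeq2, which was run as an alternative (DESeq2 1.42.0). Other alternatives were no filter, a mean count of at least 50, a replicate block, a fit of the compared groups alone, each sample left out, a size limit of 1 on the log2 fold change and, chosen after the data were seen, removal of each sample's trend with transcript length. The comparison of 10 mm with 15 mm wounds was also added after the data were seen.

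The members and gene lists were chosen with earlier results of these data known. Named genes were all 10 members, and of each list the gene with the highest level and, per comparison, called genes with the largest change, up to 4, or up to 2 with the smallest p where none was called, of which the text gives some. The 10 genes most like the mean of the members were also taken. The lists were other barrier lipid genes, epidermal differentiation, basal and wound keratinocytes, barrier regulators, hair, sebaceous gland, fibroblast, skeletal muscle, adipocyte, endothelium and leukocytes. One listed hair gene was not matched.

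Same-numbered samples of acellular 15 mm and HDB 15 mm wounds deviated together weakly (r = 0.40, 0.17 and 0.18 across genes). In no other pair of groups did all 3 numbers exceed 0.1, and replicate 2 of HDB 10 mm and HDB 15 mm wounds gave -0.54. The labels do not pair the samples. The block fitted a shared effect of replicate number over all 5 groups, so it is not a pairing of the 15 mm groups. On simulated counts for acellular 10 mm wounds against normal skin, 200 genes were changed. At a change of 1 on the log2 scale, 30% of the 200 were recovered among 15269 tested, with 2 false calls. At a change of 2, 75% of the 200 were recovered among 15260, with 13 false calls. The real comparison called 3125 genes, and the adjustment depends on how many differ, so these rates do not carry over to it. Recovery in the real comparison was not tested.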

Additional observations from a re-analysis of the deposited data

Results flagged for a closer look

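The difference from normal skin was larger in 10 mm than in 15 mm wounds for Slc27a4, by 0.89 on the log2 scale, and for Cyp4f39, by 0.81. Each is the test of the difference itself in edgeR, with an adjusted p of 0.0487, and each is numerically the comparison of 10 mm with 15 mm wounds given in the report, made after the data were seen. Both calls were lost with no filter on low counts (adjusted p = 0.0539 for Slc27a4 and 0.0522 for Cyp4f39 in edgeR), with a mean count of at least 50 (0.0574 for both), with the length trend removed (0.0566 and 0.0544), in the replicate block (0.108 for both), with only the wound groups fitted (0.117 for both), and without any of 9 of the 12 wound samples (up to 0.135). DESeq2 called both. Of the sebaceous gland list 0 of 13 genes were called in this comparison by edgeR and 9 by DESeq2 (0 to 8 by edgeR with 1 sample left out, the highest without acellular 15 mm replicate 3), with a median log2 difference of 0.78, and its summed level was 12497 to 19590 CPM over the 10 mm samples and 5669 to 12595 CPM over the 15 mm samples, ranges that overlap. Other lists also shifted between the sizes. Adipocyte genes had a median of -1.81 with 0 of 7 above 0, and 0 to 4 called by edgeR with 1 sample left out. Hair genes had a median of -3.27 with 0 of 14 above 0, and 0 to 5 called. Basal keratinocyte and skeletal muscle genes went the other way, each with 8 of 8 above 0 (medians 0.20 and 0.42). The part of any list in the difference was not tested.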

How the results depend on the processing

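In the order acellular 10 mm, acellular 15 mm, HDB 10 mm and HDB 15 mm against normal skin, the 3125, 4642, 1895 and 796 genes called became 1667, 2085, 892 and 392 when calls also needed a log2 fold change of 1 or more in size. Fitting only the groups compared gave 6196, 972, 2988 and 3401 genes, with 1 member in acellular 15 mm and 3 in HDB 15 mm wounds. DESeq2 called 3321 genes in HDB 10 mm and 2370 in HDB 15 mm wounds, with 3 members in the latter. The replicate block gave 1187 genes in HDB 10 mm and 237 in HDB 15 mm wounds, with 0 members in the latter, where Sdr9c7 reached an adjusted p of 0.0618 in edgeR, and it also ended the call of Elovl4 in HDB 10 mm wounds (adjusted p = 0.053). For HDB against acellular wounds DESeq2 called 15 genes at 10 mm, 1792 at 15 mm with 1 member, 210 over both sizes and 608 in the interaction. At 15 mm the 450 genes became 57 with the size limit of 1, 199 with no filter, 695 with a mean count of at least 50, 179 in the replicate block, 0 with only the groups compared and 0 with the length trend removed. For 10 mm against 15 mm wounds the 61 genes and 2 members became 22 and 0 with the size limit of 1, 1 and 0 with no filter, 0 and 0 with a mean count of at least 50, in the replicate block, with only the groups compared or with the length trend removed, while DESeq2 called 843 genes and 3 members. The cause of these shifts was not tested.

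With 1 sample left out, the genes called ranged over 800 to 1853 in acellular 10 mm, 2304 to 5805 in acellular 15 mm, 78 to 2725 in HDB 10 mm and 34 to 1340 in HDB 15 mm wounds against normal skin, and the members called over 1 to 4, 1 to 4, 0 to 3 and 0 to 0. For HDB against acellular wounds the ranges were 0 to 0 genes at 10 mm, 0 to 2322 at 15 mm (members 0 to 1), 0 to 229 over both sizes and 0 to 1 in the interaction, and for 10 mm against 15 mm wounds 0 to 720 genes and 0 to 3 members.

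In the comparisons with normal skin, of HDB at each size and of wound sizes, 39 log2 fold changes of members changed sign over all settings, none of them called. With the length trend removed, Abca12 was 0.11 in acellular 10 mm and 0.057 in HDB 10 mm wounds against normal skin, and -0.049 for HDB against acellular at 10 mm, where Aloxe3 was -0.012. In the replicate block Cers3 was -0.011 in acellular 15 mm wounds and Aloxe3 -0.029 for HDB against acellular at 10 mm. With 1 sample left out the ranges were, against normal skin, -0.23 to 0.11, -0.22 to 0.12 and -0.19 to 0.19 for Abca12 in acellular 10 mm, acellular 15 mm and HDB 10 mm wounds, -0.10 to 0.41, -0.54 to 0.38 and -0.53 to 0.039 for Elovl4, Cers3 and Aloxe3 in acellular 15 mm wounds, -0.032 to 0.21 for Nipal4 in HDB 10 mm wounds and -0.013 to 0.56 for Aloxe3 in HDB 15 mm wounds. For HDB against acellular at 10 mm they were -0.35 to 0.12 for Slc27a4, -0.16 to 0.27 for Elovl4, -0.13 to 0.22 for Cyp4f39, -0.26 to 0.16 for Cers3, -0.21 to 0.11 for Pnpla1, -0.10 to 0.26 for Abca12 and -0.27 to 0.39 for Aloxe3. At 15 mm they were -0.024 to 0.30 for Slc27a4, -0.11 to 0.41 for Elovl4, -0.20 to 0.12 for Cyp4f39 and -0.50 to 0.060 for Sdr9c7, and for 10 mm against 15 mm wounds -0.36 to 0.10 for Cers3. Depth limits Alox12b and Sdr9c7 most, the lowest count of any member being 19.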
